A study of Mus musculus with 33 samples.

Results

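Plasma complement and coagulation proteins are made mainly in hepatocytes, and 38 genes that encode them were followed here in mouse livers and liver tumours with active MYC and β-catenin. The 38 genes were taken by symbol from the 21671 genes of the expression table, and all 38 were found. They comprise 17 complement genes and 21 genes of coagulation, fibrin and fibrinolysis. All samples came from C57BL/6 mice and were profiled by sequencing of total RNA. In the short-term arm, mice 6 to 8 weeks old received AAV8-TBG-CRE, a virus in which the TBG promoter restricts Cre recombinase to hepatocytes, and were killed at day 4. These mice were wild type (WT), carried the beta-cat Ex3 allele, from which Cre removes exon 3 to stabilise β-catenin (Ex3), carried R26-lslMYC, a MYC transgene that Cre switches on (MYC), or carried both (MYC+Ex3), with 5 livers in each group. All 4 groups, the WT livers included, had received the virus. The tumour arm held 3 primary nodules of genotype Albeta-CreERT2/R26-lslMYC (MYC tumours) and 3 of genotype Albeta-CreERT2/R26-lslMYC/beta-catEx3 (MYC+Ex3 tumours). Its controls were the livers of 7 wild-type mice given 4-hydroxytamoxifen intraperitoneally 4 days before (4-OHT livers). The tumours have no treatment recorded, their age is not given, and the labels do not say whether the 4-OHT livers carried Cre. Sex is not in the labels either and was read from Xist and Ddx3y. The titles give each nodule a different number, taken here as the number of its animal. The p-values measure the spread between these samples.

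Complement is a cascade of plasma proteases and pore-forming proteins. Mannose-binding lectins with their MASP proteases, or antibody with C1, cleave C4 and C2; C3 and factor B form the alternative route and the amplification loop; C5 to C9 assemble the membrane attack complex. Coagulation runs from the contact proteases (factor XII, prekallikrein, kininogen and factor XI) and factor VII through factors IX, X and V to thrombin, which turns fibrinogen into fibrin. Antithrombin, heparin cofactor II, proteins C, S and Z, and C1 inhibitor restrain these proteases, and plasmin dissolves fibrin. Hepatocytes set the supply of nearly all of these proteins, through liver transcription factors such as HNF1, HNF4 and C/EBP.

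The promoters of 5 genes are printed because the results below turn on them. F11 (coagulation factor XI) and Klkb1 (plasma prekallikrein) lie next to each other in the genome and were lower in most comparisons with MYC, C9 and C6 (terminal complement components) had the largest falls in MYC+Ex3 tumours, and Fgb (fibrinogen β chain) had no call in any comparison by the test used here. Each runs from 250 bases before to 50 bases after the gene start, 5′ to 3′ on the gene's strand, from RefSeq on GRCm38.p6, whereas the reads were counted on mm9. Capitals mark matches, on either strand, to the letters GTTAAT (an HNF1 half-site), TTGCNNAA (C/EBP), CACGTG (E-box, the MYC site) or CTTTGAT (TCF/LEF, the β-catenin partner).
F11 (chr8:45261982-45262281, minus strand): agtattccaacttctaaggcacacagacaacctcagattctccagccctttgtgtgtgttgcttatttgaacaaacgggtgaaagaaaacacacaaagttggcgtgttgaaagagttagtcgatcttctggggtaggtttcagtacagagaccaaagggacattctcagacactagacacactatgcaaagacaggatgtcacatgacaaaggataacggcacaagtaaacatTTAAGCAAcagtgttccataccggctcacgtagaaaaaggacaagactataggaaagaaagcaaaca
Klkb1 (chr8:45294786-45295085, minus strand): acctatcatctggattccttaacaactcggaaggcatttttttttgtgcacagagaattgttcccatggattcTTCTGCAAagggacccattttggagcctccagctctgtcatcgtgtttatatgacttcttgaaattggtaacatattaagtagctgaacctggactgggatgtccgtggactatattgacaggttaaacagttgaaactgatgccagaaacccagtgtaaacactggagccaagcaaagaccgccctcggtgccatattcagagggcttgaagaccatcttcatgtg
C9 (chr15:6445096-6445395, plus strand): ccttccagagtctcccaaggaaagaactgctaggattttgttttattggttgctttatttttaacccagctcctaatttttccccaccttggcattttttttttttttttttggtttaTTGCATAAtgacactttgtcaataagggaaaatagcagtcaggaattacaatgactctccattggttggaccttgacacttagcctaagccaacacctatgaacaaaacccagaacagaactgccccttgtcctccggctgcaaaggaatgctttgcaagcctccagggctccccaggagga
C6 (chr15:4726960-4727259, plus strand): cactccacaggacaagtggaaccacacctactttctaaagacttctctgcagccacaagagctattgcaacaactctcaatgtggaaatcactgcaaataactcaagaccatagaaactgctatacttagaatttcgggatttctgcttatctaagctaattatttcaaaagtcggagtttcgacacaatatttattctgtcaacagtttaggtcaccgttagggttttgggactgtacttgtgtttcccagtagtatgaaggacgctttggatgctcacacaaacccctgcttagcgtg
Fgb (chr3:83049814-83050113, minus strand): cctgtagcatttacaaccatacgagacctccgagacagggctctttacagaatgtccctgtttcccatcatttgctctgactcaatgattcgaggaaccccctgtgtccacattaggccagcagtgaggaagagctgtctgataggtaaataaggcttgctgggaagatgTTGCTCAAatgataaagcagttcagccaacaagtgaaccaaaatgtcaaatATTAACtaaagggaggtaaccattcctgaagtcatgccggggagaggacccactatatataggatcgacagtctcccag
F11, Klkb1 and C9 each held 1 C/EBP match, Fgb held 1 C/EBP match and 1 HNF1 half-site, and C6 held no match to these letters. Promoters were found for 29 of the 38 genes. Of these, 9 (31%) held GTTAAT, which occurs in 7.1% of all 32851 promoters of the same length, and 9 (31%) held TTGCNNAA, against 10.8% of all promoters. CACGTG occurred in 0 of 29, against 7.15% of all promoters, and CTTTGAT in 2 (Masp2 and Serpind1; 6.9%), against 3.73%. The members were counted as genes with a match in any promoter listed for them, and the background as single promoters, so the 2 shares are unlike measures. A match is a description of the letters and does not show binding.

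Expression was deposited as RPKM, the reads of a gene divided by its length in kilobases and by a library total in M reads. Reads in genes numbered 3.75 to 7.31 M per library in the AAV arm and 6.65 to 9.82 M in the tumour arm, but they made up 99.95% to 99.96% of the total behind the RPKM scale in the first set and 22.19% to 29.61% in the second. RPKM was therefore compared only within an arm. Axin2, a β-catenin target, was at 18.4 ± 5.37 RPKM in Ex3 and 16.6 ± 7.46 in MYC+Ex3 livers against 3.32 ± 0.609 in WT livers (SD, n = 5 each). It was at 9.89 ± 1.99 in MYC+Ex3 tumours against 0.362 ± 0.284 in MYC tumours (SD, n = 3 each). Mouse Myc was at 3.99 ± 0.751 RPKM in MYC and 2.57 ± 1.22 in WT livers (SD, n = 5 each), and whether reads of the transgene count towards it is not given in the sources used here. Keratin genes of the epidermis (Krt5, Krt14 and Krt17) summed to 3.95 to 23.8 RPKM in 10 of the 20 AAV libraries, 3 of 5 in WT, Ex3 and MYC+Ex3 and 1 of 5 in MYC, and to 0.398 or less in the other 10. MYC liver 5 carried 86.1 RPKM of Xist together with 4.74 of Ddx3y, and was taken as female.

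One property of the libraries bears directly on these abundant genes. The highest reads per kilobase of any gene lay between 1474 and 1648 in all AAV libraries and between 1612 and 1810 in all tumour-arm libraries, so that every library stopped at nearly the same level whatever its depth. Many complement and coagulation genes lie close to it. In WT AAV livers 12 of the 38 genes had on average at least 60% of the reads per kilobase of their library's highest gene, and in 4-OHT livers 18 did. Within groups of the AAV arm, log2 reads of the 38 genes rose with log2 library total at a median slope of 0.629, against 1.18 for the 10480 genes with at least 20 reads in every library. In the tumour arm the median slope was 0.0706 for the 37 genes with that many reads, against 0.799 for 11421 genes. The RPKM of the most abundant members therefore fell as a library's total grew, and differences among them were compressed.

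The fibrinogen gene Fgb led the levels in both kinds of wild-type liver. Fgb was at 273.5 ± 28.8 RPKM in WT AAV livers (SD, n = 5), the 10th most abundant gene of that group, and at 47.4 ± 6.16 in 4-OHT livers (SD, n = 7), the 13th. The highest gene of each role in WT AAV livers was Fgb for fibrin, F2 (prothrombin) for the vitamin K-dependent proteases at 233.4 ± 10.9 RPKM, Cfb (factor B) for the alternative route at 230.9 ± 16.0, Serpind1 (heparin cofactor II) for the thrombin inhibitors at 215 ± 9.10, and Serpinf2 (α2-antiplasmin) for fibrinolysis at 206 ± 10.7. Mbl2 (mannose-binding lectin C) led the lectin and classical routes at 205 ± 9.72, F12 (factor XII) the cofactor and contact group at 196 ± 13, C8g (the γ chain of C8) the terminal components at 192 ± 25.4 and C4bp (C4b-binding protein) the complement inhibitors at 182 ± 21.5 (SD, n = 5 for each). The lowest were the lectin route proteases Masp1, at 44.8 ± 4.68, and Masp2, at 45.1 ± 5.39, which did not differ beyond their spread. In WT AAV livers prothrombin, factor B, the fibrinogen chain Fga and C3 followed the fibrinogen chains Fgb and Fgg, within 1 SD of each other.

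Stabilised β-catenin alone left these genes without a call. The values of Ex3 and WT livers were compared with limma on log2(RPKM + 1), a model fitted over all 13688 genes of the 20 AAV livers, and a gene counts as called at a Benjamini-Hochberg adjusted p under 0.05. In Ex3 against WT livers 0 of 38 genes were called, where 0.132% of all genes were called, all of them higher. By limma 0 members reached even an unadjusted p under 0.05, which 5.44% of all genes did. The 4 genes with the smallest p were Pros1 (protein S, log2 change 0.15 ± 0.12, SE), Cpb2 (the fibrinolysis inhibitor carboxypeptidase B2, -0.14 ± 0.12), Fga (fibrinogen α chain, -0.12 ± 0.12) and F11 (0.27 ± 0.28), with limma adjusted p from 0.99 to 1.0.

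At day 4 of MYC 5 coagulation genes were called lower on the RPKM scale as deposited, and complement genes were called only under other settings. F5 (factor V, the cofactor of factor Xa), F9 (factor IX), F11, Klkb1 and Proz (protein Z, a cofactor in factor Xa inhibition) were lower in MYC than in WT livers, to between 50.5% and 77.1% of the WT mean. Lower calls made up 5.36% of all 13688 genes and calls in either direction 22.3%, and 5 of 38 members were called, all lower. The mean log2(RPKM + 1) was lower in 36 of the 38 genes, with a median change of -0.21 against 0.069 over all genes tested. Masp2 and Mbl2, neither of them called, changed sign when each library was rescaled by its median ratio. By limma 16 members had an unadjusted p under 0.05, as did 35.3% of all genes. After that rescaling 12 members were called, among them the complement genes Hc, Masp1, Mbl1 and Serping1, and the authors' deposited table called Mbl1, Serping1, Cfi and Hc lower (adjusted p 0.0069, 0.032, 0.042 and 0.049).

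F11 had the largest change at day 4. It was at 73.4, 39.2, 77.1, 69.0 and 68.3 RPKM in the 5 WT livers, at 83.5, 82.7, 71.2, 76.4 and 71.0 in the Ex3 livers, at 27.3, 60.9, 37.9, 11.6 and 27.6 in the MYC livers, and at 32.0, 24.2, 33.1, 39.2 and 37.0 in the MYC+Ex3 livers. MYC liver 2 lay above WT liver 2, and the other MYC livers lay below every WT liver. MYC+Ex3 livers lay below every WT and every Ex3 liver, but only just below WT liver 2 (39.16 in MYC+Ex3 liver 4 against 39.20). In reads per kilobase WT liver 2 (175) lay within the MYC+Ex3 range (124 to 210), and every Ex3 liver lay above it (300 or more). The log2 change was -1.11 ± 0.28 (SE; limma adjusted p 0.0071) in MYC against WT, -0.94 ± 0.28 (limma adjusted p 0.018) in MYC+Ex3 against WT and -1.21 ± 0.28 (limma adjusted p 0.0038) in MYC+Ex3 against Ex3. The first pair of these comparisons shares the WT livers.

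Klkb1, whose product activates factor XII and releases bradykinin, moved less. WT livers had 102.7, 109.9, 106.6, 106.2 and 115.1 RPKM, MYC livers 64.8, 92.6, 89.3, 42.0 and 70.3, and MYC+Ex3 livers 64.3, 55.9, 85.5, 73.9 and 94.2. In RPKM neither group with MYC overlapped the WT livers. In reads per kilobase MYC liver 2 (562) lay within the WT range (490 to 647), and every MYC+Ex3 liver lay below it. F5 was at 101.1, 161.6, 128.0, 124.7 and 134.4 RPKM in WT livers against 68.4, 96.1, 79.0, 27.3 and 99.6 in MYC livers. These RPKM values did not overlap either (log2 change -0.91 ± 0.24, SE, limma adjusted p 0.0088). In reads per kilobase F5 of MYC livers 2 and 5 (583 and 666) lay within the WT range (544 to 776). These livers had the largest totals of their group (6.07 and 6.69 M). In RPKM 5 of the 38 members in MYC and 7 in MYC+Ex3 livers lay below every WT liver. So did 2.4% and 3.7% of all genes tested. MYC liver 4 was the lowest of its group for F11, Klkb1 and F5. The count in MYC against WT livers was 5 to 9 when each liver was left out in turn, with 9 without MYC liver 3.

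The vitamin K-dependent F9 and Proz were lower by smaller steps. F9 was at 130 ± 12.5 RPKM in WT, 97.3 ± 12.9 in MYC and 93.1 ± 15.8 in MYC+Ex3 livers, and Proz at 164 ± 11.1, 126 ± 20.7 and 121 ± 14.5 (SD, n = 5 each). In RPKM Proz in both groups with MYC lay below all WT livers, while MYC liver 3 (119.8) and MYC+Ex3 liver 3 (113.5) overlapped the lowest WT liver (107.9) for F9. In reads per kilobase the lowest WT liver for Proz was at 733. MYC livers 2 and 5 (838 and 870) and MYC+Ex3 liver 2 (755) lay above it. On that scale F9 in both groups with MYC lay below all WT livers (596 or more).

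**Figure D1:**
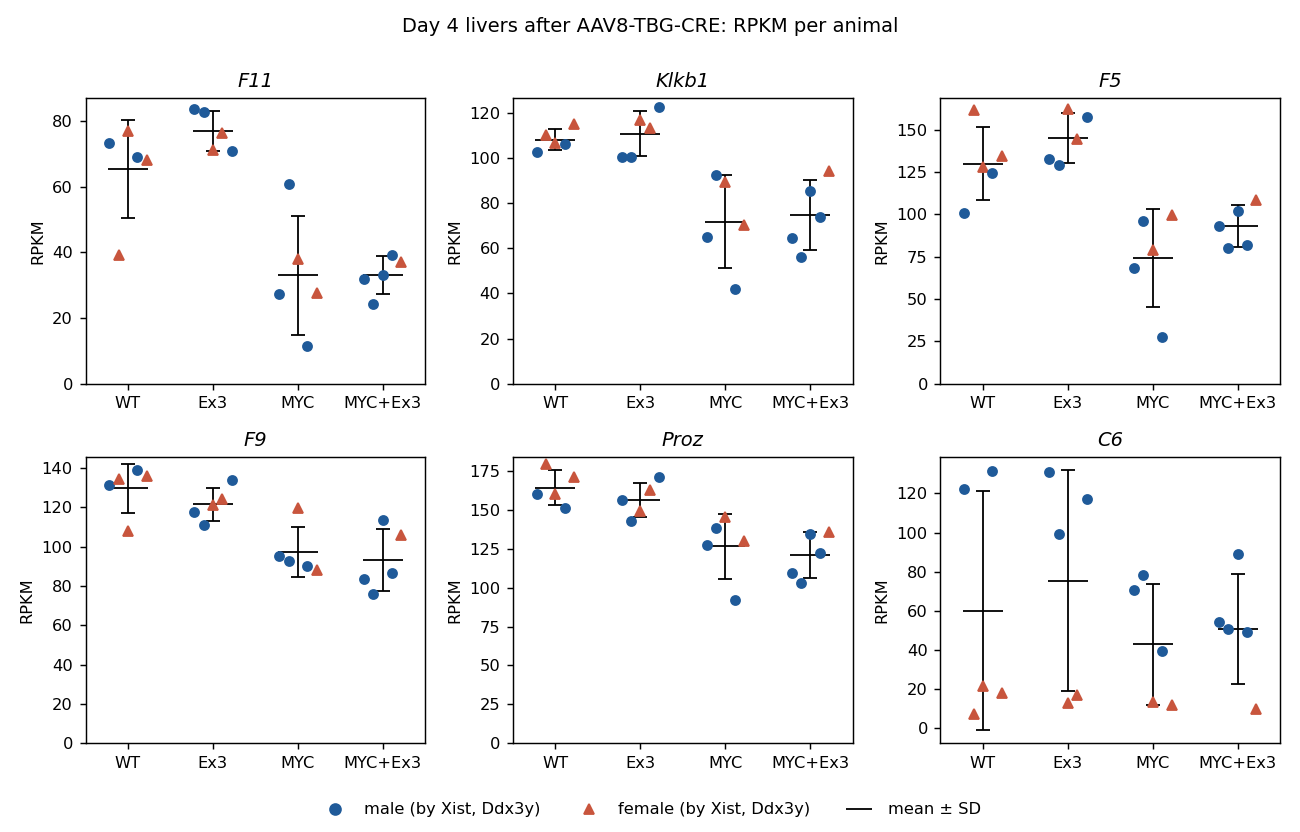
RPKM of 6 genes in each of the 20 AAV livers by genotype, with circles for males, triangles for females and bars for the mean ± SD of 5 livers. F11, Klkb1, F5, F9 and Proz sat lower in the 2 groups with MYC, and C6 separated males (39.8 to 131.3) from females (7.54 to 21.7) in every group.

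With both alleles 8 of 38 genes were called against WT livers, all lower, where 6.18% of all genes were called lower and 24.1% in either direction. F9, F11, Klkb1 and Proz were again among them. The others were Hc (complement C5, log2 change -0.36 ± 0.11), Kng1 (kininogen, -0.30 ± 0.11), Cpb2 (-0.38 ± 0.12) and Serpinf2 (-0.26 ± 0.08; SE), with limma adjusted p from 0.016 to 0.048. F5 was at 93.1 ± 12.5 RPKM against 130 ± 21.7 (SD, n = 5 each) and did not pass the test. Reads of Kng1 can be shared with its close copy Kng2. The count was 2 to 17 when each liver was left out in turn: 2 without MYC+Ex3 liver 2, 4 without MYC+Ex3 liver 1 or WT liver 4, and 17 without MYC+Ex3 liver 3.

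Against Ex3 livers, MYC+Ex3 livers also had 8 of 38 genes lower, where 4.7% of all genes were called lower and 21.1% in either direction. These were Hc, Mbl1 (mannose-binding lectin A), F9, F11, F12, Klkb1, Proz and Serpinf2, with log2 changes from -1.21 for F11 to -0.27 for Serpinf2. Mbl1 was at 147 ± 39.3 RPKM against 194 ± 16.0 (SD, n = 5 each), and MYC+Ex3 liver 3 (211.0) lay within the Ex3 range. In reads per kilobase that liver lay below every Ex3 liver (791 against 880 or more). The count was 1 to 11 when each liver was left out in turn: 1 without MYC+Ex3 liver 2, 3 without MYC+Ex3 liver 1, and 4 without Ex3 liver 1 or Ex3 liver 5.

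Adding Ex3 to MYC changed no member by this test at day 4. In MYC+Ex3 against MYC livers 0 of 38 genes were called, and 0.19% of all genes were; by limma 0 members had an unadjusted p under 0.05, against 3.37% of all genes. F5 had the smallest p, with 93.1 ± 12.5 against 74.1 ± 29.0 RPKM (SD, n = 5 each) and a log2 change of 0.44 ± 0.24 (SE; limma adjusted p 1.0). For the interaction of MYC and Ex3, 0 members and 0% of all genes were called, and by limma 0 members had an unadjusted p under 0.05, against 0.964% of all genes. C8a (the α chain of C8) had the smallest p there, with a difference of -0.37 ± 0.29 (SE) on the log2 scale.

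Males and females differed in 4 terminal complement genes of the AAV livers. C6, C8a, C8b and C9, all parts of the membrane attack complex, were higher in males by limma, 4 of 38 members where 3.09% of all genes differed in either direction. C6 was at 122.2 and 131.3 RPKM in the 2 male WT livers and at 7.54, 21.7 and 18.1 in the 3 female ones. It was at 131.0, 99.1 and 117.1 in male and 13.2 and 16.9 in female Ex3 livers. In MYC livers males had 70.5, 78.5 and 39.8 and females 13.5 and 12.1, and in MYC+Ex3 livers males had 54.2, 50.7, 89.2 and 49.4 and the 1 female 9.89. The sexes did not overlap in any group, and the log2 difference was 2.65 ± 0.19 (SE, males minus females). The differences of C8a, C8b and C9 were 0.49 ± 0.11, 0.55 ± 0.10 and 0.52 ± 0.11 (SE), with limma adjusted p of 0.012, 0.0020 and 0.0090. In the tumour arm 0 members passed this test (0.0506% of all genes), and C6 was at 10.1 to 18.9 RPKM in 4 male and 6.95 to 9.05 in 3 female 4-OHT livers. By limma 1 to 4 of 38 members were called lower in the 3 comparisons of livers with and without MYC when only males were used, a fit of 12 livers, and 5 to 12 with sex as a covariate. The median log2 change of the members in males was -0.32 in MYC against WT, -0.37 in MYC+Ex3 against WT and -0.29 in MYC+Ex3 against Ex3 livers, and in all livers -0.21, -0.27 and -0.26. C6 was 1 of those gained in MYC+Ex3 against WT livers, where its log2 change was 0.25 ± 0.82 (SE; limma adjusted p 0.86) without and -0.81 ± 0.26 (limma adjusted p 0.033) with sex in the model.

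The effect of MYC was also fitted in each sex. Over MYC and MYC+Ex3 against WT and Ex3 livers, 20 members were called lower in males, where 10.7% of all genes were called lower and 30.9% in either direction. In females by limma 0 were called, with 0.27% of all genes lower and 6.56% in either direction. The males numbered 7 with and 5 without MYC, and the females 3 and 5. The difference between the sexes itself was tested and called 0 members and 0% of genes. C6 fell by 1.00 ± 0.23 (SE) on the log2 scale in males (limma adjusted p 0.0036), with -0.36 ± 0.30 in females and a difference of -0.64 ± 0.38 (limma adjusted p 0.88).

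Most of these genes were lower in tumours. Against 4-OHT livers 20 of 38 genes were called lower in MYC tumours and 23 in MYC+Ex3 tumours, and 0 were higher. Lower calls made up 13.7% and 18.4% of the 11854 genes tested, higher calls 36.2% and 42.3%, and calls in either direction 49.8% and 60.6%. Both comparisons share the 7 livers. Of the 38 genes 11 lay below all livers in all MYC tumours and 21 in all MYC+Ex3 tumours, as did 8.89% and 17.8% of all genes tested. The median log2 change of the 38 genes was -0.39 in MYC and -0.41 in MYC+Ex3 tumours, where the median over all genes was shifted to 0.19 and 0.23. After each library was rescaled by its median ratio, 31 and 35 members were called lower, and the uncalled values of Fga in MYC and Pros1 in MYC+Ex3 tumours changed sign. The members that stayed uncalled after rescaling were F2, F10, Fga, Fgb, Fgg, Kng1 and Serpinf2 in MYC tumours, and Fga, Fgb and Pros1 in MYC+Ex3 tumours, so the counts by role below hold for RPKM as deposited. In bulk tissue fewer cells of a type and less RNA per cell cannot be told apart.

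**Figure D2:**
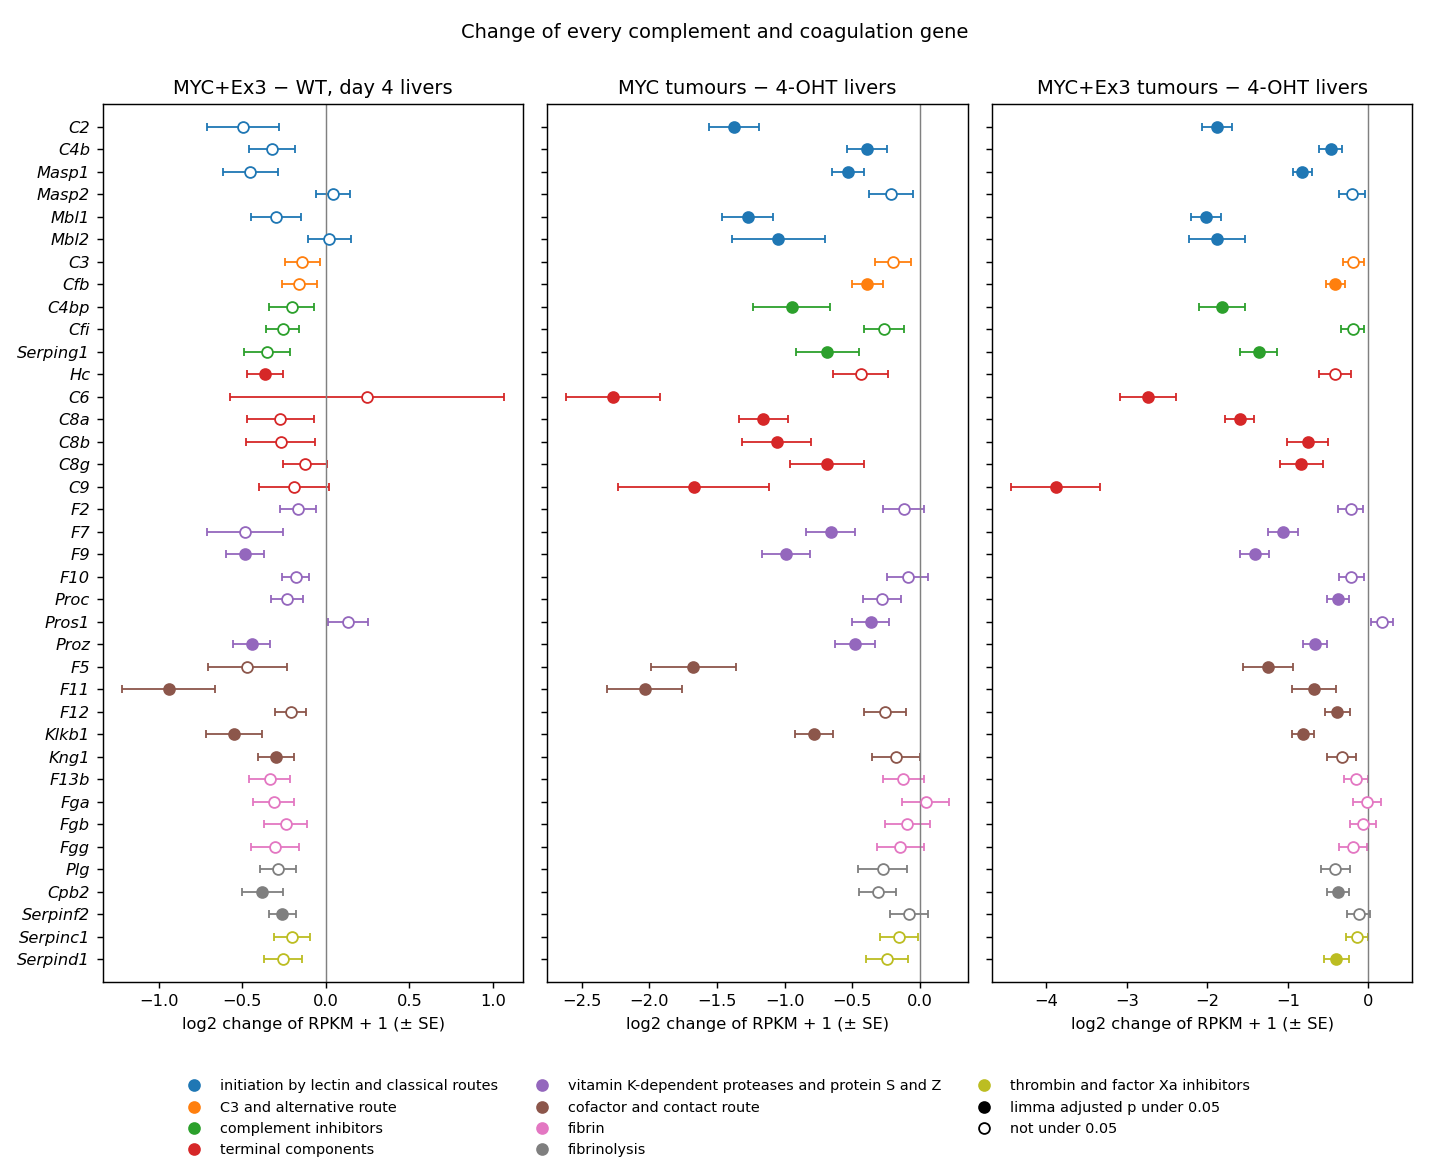
Log2 change of RPKM + 1 (± SE) of all 38 genes, coloured by role, in MYC+Ex3 against WT livers, MYC tumours against 4-OHT livers and MYC+Ex3 tumours against 4-OHT livers, with filled points for a limma adjusted p under 0.05 and a separate scale in each panel. C6 and F11 lay farthest to the left for MYC tumours and C9 and C6 for MYC+Ex3 tumours, and the 4 fibrin genes have open points on this scale, although F13b and Fgg were called after rescaling.

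The largest fall in each kind of tumour was in a terminal complement gene, C6 with MYC and C9 with MYC+Ex3. Of 6 terminal components 5 were called lower in each kind of tumour, C6, C8a, C8b, C8g and C9, and Hc was not called. C8g did not fall in every MYC tumour. It was at 45.8, 19.4 and 11.9 RPKM there, against 30.7 to 40.7 in the livers, so MYC tumour 1 lay above them all. In MYC+Ex3 tumours C8g was at 18.5, 20.5 and 20.8. C9, which polymerises into the wall of the pore, was at 27.7, 14.2, 23.9, 13.3, 25.9, 15.1 and 15.7 RPKM in the 4-OHT livers, at 18.4, 7.80 and 0.368 in the MYC tumours, and at 0.202, 0.758 and 0.110 in the MYC+Ex3 tumours. All MYC+Ex3 tumours lay far below every liver, and only MYC tumour 1 overlapped the livers. These tumours held 6 to 40 reads of C9 each, against 706 to 1532 in the livers. The mean RPKM was 54.4-fold lower in MYC+Ex3 tumours, a log2(RPKM + 1) change of -3.88 ± 0.56 (SE; limma adjusted p 4.1e-05). In MYC tumours it was -1.67 ± 0.56 (limma adjusted p 0.022), and -0.59 (limma adjusted p 0.16) without MYC tumour 3.

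C6, which binds C5b to start the pore, was at 18.9, 6.95, 17.9, 7.39, 16.0, 9.05 and 10.1 RPKM in the 4-OHT livers, at 0.836, 4.25 and 0.825 in MYC tumours and at 0.848, 0.938 and 0.828 in MYC+Ex3 tumours. Every tumour lay below every liver, of either sex. The mean was 6.26-fold lower in MYC tumours (log2 change -2.27 ± 0.35, SE; limma adjusted p 0.00014) and 14.2-fold lower in MYC+Ex3 tumours (-2.74 ± 0.35; limma adjusted p 1.5e-05). C8a was at 34.6 ± 4.29 RPKM in livers (SD, n = 7), 15.4 ± 5.35 in MYC and 10.9 ± 2.19 in MYC+Ex3 tumours (SD, n = 3 each). Its neighbour C8b was at 25.1 ± 3.89, 12.8 ± 7.38 and 14.4 ± 2.01 in the same groups.

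The lectin and classical routes followed, with 5 of 6 genes called lower in each kind of tumour. C2, the protease of the C3 convertase, was at 19.5 to 24.9 RPKM in the livers (median 21.0), at 7.74, 12.3 and 4.67 in MYC tumours and at 5.10, 5.47 and 4.80 in MYC+Ex3 tumours, without overlap (log2 change -1.38 ± 0.19 and -1.88 ± 0.19, SE; limma adjusted p 5.8e-05 and 1.9e-06). Mbl1 was at 22.4 to 34.0 in the livers (median 29.4), at 12.6, 11.96 and 8.62 in MYC tumours and at 6.39, 8.50 and 4.14 in MYC+Ex3 tumours. Mbl2 was at 30.8 to 40.1 in the livers (median 38.0), at 40.3, 15.5 and 7.17 in MYC tumours, and at 9.88, 12.2 and 5.82 in MYC+Ex3 tumours. MYC tumour 1 thus stood with the livers for Mbl2, while its Mbl1 was below all of them. Masp1 and C4b were lower by smaller amounts, and Masp2 was at 10.2 ± 3.68 and 9.98 ± 1.02 (SD, n = 3 each) against 11.7 ± 1.31 in livers (SD, n = 7) without a call. Reads of C4b can be shared with its close copy C4a.

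Of the other complement genes, factor B was called lower and C3 was not. Cfb was at 45.2 ± 4.51 RPKM in livers (SD, n = 7), 34.2 ± 2.36 in MYC and 33.8 ± 3.68 in MYC+Ex3 tumours (SD, n = 3 each), while C3 was at 43.7 ± 4.50, 38.2 ± 7.09 and 38.2 ± 4.37. Among 3 inhibitors 2 were called lower in each kind of tumour. C4bp, the cofactor that inactivates C4b, went from 33.5 ± 3.65 to 18.7 ± 11.2 and 9.38 ± 4.08. Serping1 (C1 inhibitor) went from 36.2 ± 4.10 to 23.1 ± 9.42 and 14.2 ± 6.44. Cfi (factor I) was not called.

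Among coagulation genes F11 and F5 had the largest falls in MYC tumours, and F9 and F5 in MYC+Ex3 tumours. F5 was at 25.4 to 30.1 RPKM in the livers (median 26.3), at 12.9, 12.97 and 2.51 in MYC tumours and at 11.2, 11.4 and 9.88 in MYC+Ex3 tumours, without overlap (log2 change -1.67 ± 0.31 and -1.25 ± 0.31, SE; limma adjusted p 0.00060 and 0.0031). F9 was at 20.2 to 29.1 in the livers (median 24.4), at 16.3, 8.40 and 11.0 in MYC tumours and at 7.15, 9.73 and 8.27 in MYC+Ex3 tumours. Klkb1 was at 17.9 to 23.1 (median 22.4), at 12.7, 14.2 and 8.80, and at 10.2, 12.03 and 12.3. For each of these 3 genes every tumour was below every liver. Of the cofactor and contact genes 3 of 5 were lower in MYC tumours and 4 of 5 in MYC+Ex3 tumours, where F12 joined them (29.7 ± 3.87 against 39.1 ± 4.54 RPKM). Of 7 vitamin K-dependent genes 4 were lower in each: F7 (factor VII, which starts the tissue factor route; log2 changes of -0.66 and -1.06), F9 and Proz in both, with Pros1 called in MYC tumours and Proc (protein C) in MYC+Ex3 tumours. F2 and F10 (factor X) were called in neither.

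Fibrin genes had no call in any of the 9 comparisons on RPKM as deposited. After rescaling F13b was called lower in both kinds of tumour and in MYC+Ex3 against WT livers, and Fgg in MYC+Ex3 tumours. Fgb was at 38.4 to 54.1 RPKM in the livers (median 49.6), at 60.1, 36.8 and 38.4 in MYC tumours and at 37.8, 47.4 and 50.4 in MYC+Ex3 tumours, so that the groups overlapped. Fga, Fgg and F13b (the factor XIII B subunit) had log2 changes from -0.19 to 0.04 in the tumours. The 3 fibrinogen chains had on average 70.1% to 90.7% of the highest reads per kilobase in 4-OHT livers, at the compressed end of the scale, and F13b 40.7%. When the library total was added as a covariate, 31 and 32 of the 38 genes were called lower in MYC and MYC+Ex3 tumours, Fgg in both. The fibrinolysis genes gave 0 calls of 3 in MYC tumours and 1 in MYC+Ex3 tumours, Cpb2 (18.9 ± 2.04, n = 3, against 24.9 ± 3.47, n = 7; SD). The thrombin inhibitors gave 0 and 1 of 2, with Serpind1 at 29.3 ± 3.50 (n = 3) against 38.9 ± 4.50 (n = 7; SD) and antithrombin (Serpinc1) not called.

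**Figure D3:**
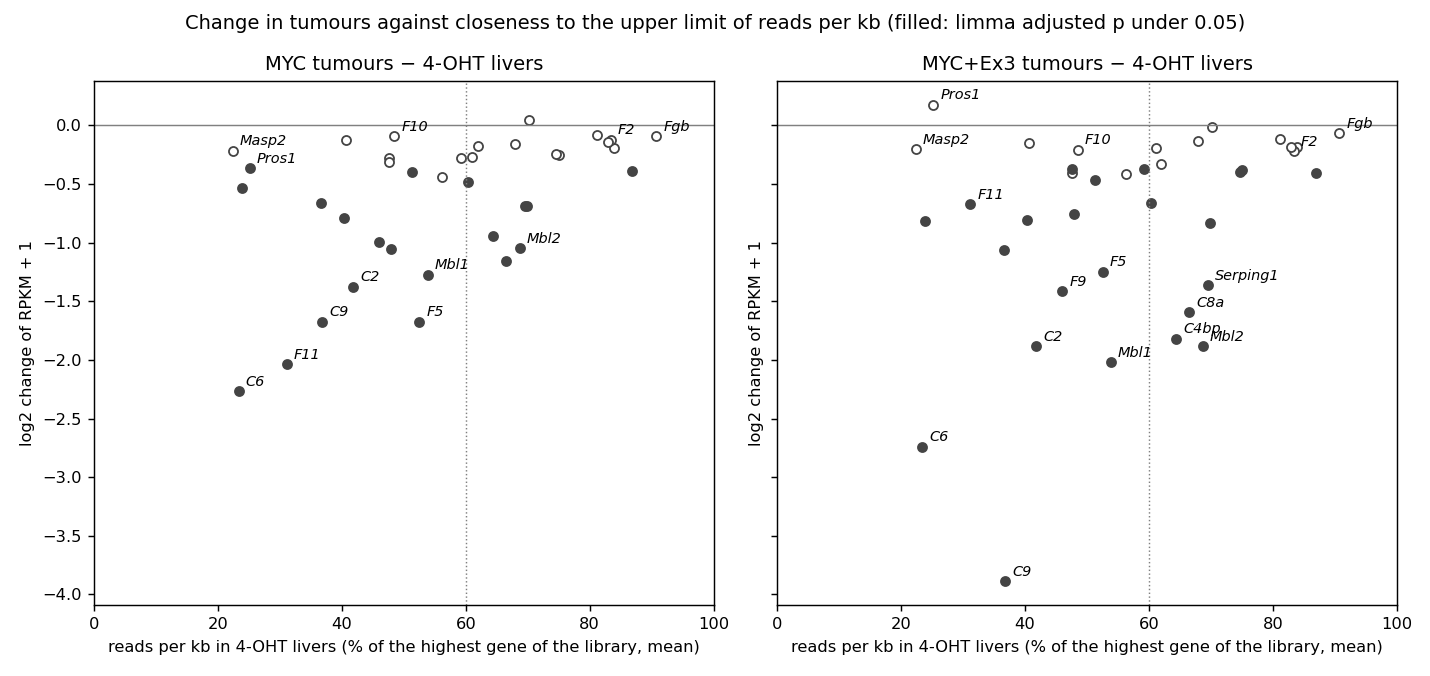
Log2 change of RPKM + 1 of the 38 genes in each kind of tumour against their closeness to the upper limit of reads per kilobase in 4-OHT livers, with filled points for a limma adjusted p under 0.05 and a dotted line at 60%. Right of the line 7 of 18 genes were called lower in MYC tumours and 9 of 18 in MYC+Ex3 tumours, and left of it 13 and 14 of 20.

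**Figure D4:**
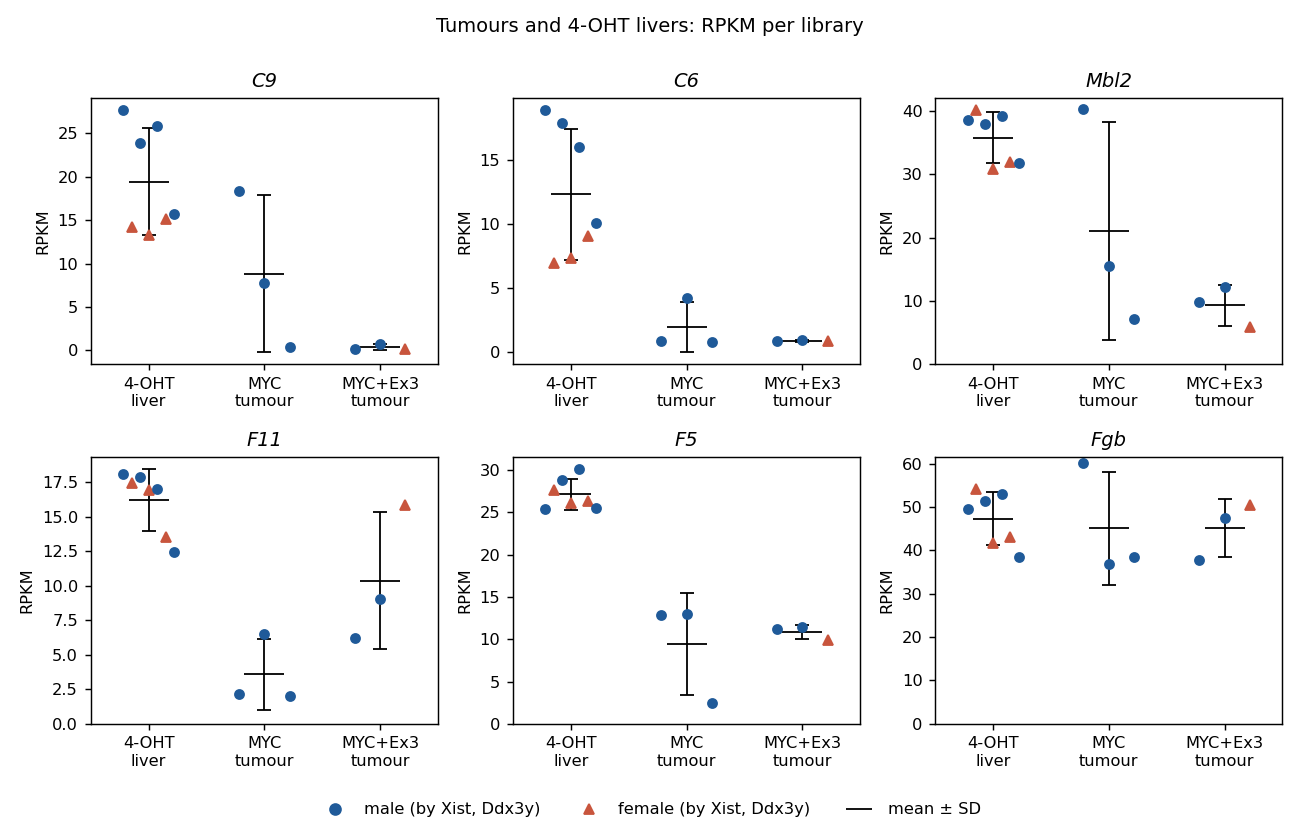
RPKM of 6 genes in each library of the tumour arm, with circles for males, triangles for females and bars for the mean ± SD. C6 and F5 of all 6 tumours lay below all 7 livers, C9 was close to 0 in the 3 MYC+Ex3 tumours, and Fgb overlapped between the groups.

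The spread among MYC tumours was wide. MYC tumour 1 lay within or above the range of the livers for C9, C8g, Mbl2, C4bp and all fibrinogen chains. Yet it had low C6, C2, Mbl1, F5 and F11. It also had the smallest library total of its arm (23.89 M). In reads per kilobase it lay below every liver for Mbl2 (962 against 1113 or more) and C4bp (750 against 980 or more). The same held for Fgb (1435 against 1471 or more) and Fgg (1297 against 1324 or more). It lay within the livers for C9 and Fga, and level with the lowest liver for C8g (1093). The count in MYC tumours was 12 to 29 when each library was left out in turn, with 13 without MYC tumour 2 and 12 without MYC tumour 3, and 14 to 23 in MYC+Ex3 tumours, with 14 without MYC+Ex3 tumour 1. Against the 3 livers with S15 titles alone the counts were 9 and 14, and against the 4 with S14 titles 14 and 19.

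F11 was the only member called between the 2 kinds of tumour on RPKM as deposited, and it was higher with Ex3; after rescaling Pros1 was called higher too. It was at 12.5 to 18.1 RPKM in the livers (median 17.0), at 2.16, 6.54 and 2.03 in MYC tumours, and at 6.22, 9.04 and 15.9 in MYC+Ex3 tumours. MYC tumour 2 lay between the lowest pair of MYC+Ex3 tumours, and the highest MYC+Ex3 tumour, the only one from a female, lay within the livers. The log2 change between tumours was 1.36 ± 0.33 (SE; limma adjusted p 0.031), in a comparison where 2.02% of all genes were called higher, 2.1% lower and 4.13% in either direction. The limma adjusted p was 0.063 with sex as a covariate, 0.071 without MYC tumour 1 or 3, 0.082 without MYC+Ex3 tumour 2 and 0.15 without MYC+Ex3 tumour 3; without MYC tumour 3 the count was 4. Against 4-OHT livers F11 changed by -2.03 ± 0.28 in MYC tumours and by -0.67 ± 0.28 (SE; limma adjusted p 0.047) in MYC+Ex3 tumours.

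The next smallest p between tumours belonged to C9, Mbl1 and Pros1, none of them called. Mbl1 was at 6.34 ± 2.18 RPKM with Ex3 and 11.1 ± 2.16 without, and Pros1 at 14.9 ± 2.41 and 9.90 ± 1.37 (SD, n = 3 each). Neither overlapped, but the nearest Mbl1 values were 8.50 and 8.62. Of all genes tested 7.71% were lower and 8.59% higher without overlap, and of the 38 members 1 and 1. The limma adjusted p of C9, Mbl1 and Pros1 were 0.080, 0.083 and 0.085. Klkb1, the neighbour of F11, was at 11.5 ± 1.15 and 11.9 ± 2.77. F11 and Klkb1 were therefore both low in MYC tumours, and only F11 differed between tumours by this test; the difference between the 2 genes was not tested.

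The authors' deposited table of comparisons gave more calls in livers and tumours with MYC against wild-type livers, but not every call made here. In MYC tumours it did not call C9 (log2 change -0.97, authors' adjusted p 0.18) or C8g (-0.66, authors' adjusted p 0.070). In MYC+Ex3 against WT livers it did not call Kng1 (-0.36, authors' adjusted p 0.064). At an adjusted p under 0.05 the authors' deposited table had 13 members lower in MYC against WT livers (8.02% of its genes called lower), 13 in MYC+Ex3 against WT (11.5%), 26 in MYC tumours (20.2%) and 36 in MYC+Ex3 tumours (29.9%). Fgb, Fgg and F13b, with log2 changes of -0.28, -0.41 and -0.37 in MYC+Ex3 tumours (adjusted p 0.024, 0.0018 and 0.0023), were among the 36 in the authors' deposited table. Between tumours the authors' deposited table called 1 member, Pros1 (log2 change 0.54, adjusted p 0.022), and gave F11 1.05 with an adjusted p of 0.12.

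Other genes of these pathways included both directions. The AAV arm allowed a test of 56 of 64 such genes, with 4 higher and 7 lower in MYC and 2 higher and 12 lower in MYC+Ex3 against WT livers. Of all genes 16.9% were called higher and 5.36% lower in MYC, and 17.9% and 6.18% in MYC+Ex3 livers. Plau (urokinase, a plasminogen activator) was higher, at 6.24 RPKM in MYC+Ex3 against 2.15 in WT livers, as was the C5a receptor C5ar1 in MYC livers (3.89 against 1.51). Colec10 (a collectin of the lectin route) and Cd59a (an inhibitor of the membrane attack complex) were lower in MYC against WT livers (log2 changes of -1.05 and -0.96).

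In the tumour arm 50 of the 64 were tested, with 8 higher and 21 lower in MYC and 7 higher and 28 lower in MYC+Ex3 tumours. Of all genes 36.2% were called higher and 13.7% lower in MYC, and 42.3% and 18.4% in MYC+Ex3 tumours. Plat (tissue plasminogen activator) was at 0.156 RPKM in livers, 0.752 in MYC and 5.90 in MYC+Ex3 tumours, and it was called higher between the tumours (log2 change 1.96 ± 0.19, SE). Hrg (histidine-rich glycoprotein) was at 8.86 in MYC+Ex3 tumours against 36.7 in livers. Vsig4, a complement receptor of Kupffer cells, was at 6.19 in MYC tumours against 19.7.

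Of 28 other secreted liver proteins, 0 were higher and 5 lower in MYC tumours, and 1 higher and 10 lower in MYC+Ex3 tumours, with median log2 changes of -0.25 and -0.23. Of 20 acute phase genes 12 and 10 were lower and 0 and 1 higher. Of 19 hepatocyte transcription factors 5 and 9 were lower and 0 higher. Lower calls made up 13.7% and 18.4% of all genes tested, and higher calls 36.2% and 42.3%. In MYC and MYC+Ex3 against WT livers 2 and 4 of 28 secreted proteins and 1 and 7 of the acute phase genes were lower. So were 4 and 5 of 20 transcription factors, where 5.36% and 6.18% of all genes were called lower. The hepatocyte markers (Alb, Ttr, Apoa1, Cps1, Cyp2e1, Hnf4a, Ass1 and Tat) were present throughout and summed to 255 to 352 RPKM in 4-OHT livers, 202 to 351 in MYC and 212 to 279 in MYC+Ex3 tumours, with 1 and 3 of 8 called lower. Macrophage markers were lower too (7 and 6 of 9), with sums of 126 to 171 in livers against 39.7 to 137 and 68.4 to 80.4, as were endothelial markers (5 and 5 of 7), at 43.5 to 72.4 against 24.3 to 40.6 and 26.2 to 31.1. Of stellate and fibroblast markers 3 were higher and 3 lower in MYC tumours and 1 and 5 of 8 in MYC+Ex3 tumours, and 3 of 3 lymphocyte markers tested were lower in MYC+Ex3 tumours. Neutrophil markers were higher in MYC+Ex3 tumours (3 of 3, 73.0 to 92.5 against 9.75 to 28.7). Erythroid markers were higher there too (3 of 3, 46.1 to 54.4 against 12.7 to 29.8). In that comparison 42.3% of all genes were called higher, and 38.2% lay above every liver without overlap. The part of these cells in the changes above was not tested.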

How the data were processed

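Total RNA from 20 livers of the AAV arm, 7 4-OHT livers and 6 tumours was made into stranded libraries, per the labels' protocols. The authors deposited 1 RPKM value per gene and library. Per the submitters' processing notes, TopHat2 2.0.8, SAMtools, featureCounts 1.4.5-p1 and DESeq2 were used with genome build mm9; the annotation and any removal of duplicates are not given in the sources used here. The authors also deposited a log2 fold change and an adjusted p-value for each of their comparisons, which were only counted and quoted. Samples were grouped by title, genotype and treatment.

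Whole reads could be recovered from the ratios of RPKM between libraries in all 20485 genes with reads (tolerance 1e-06 reads), which gave the depth and the reads per kilobase. The main test was limma 3.58.1 (R 4.3.3) with an empirical Bayes trend on log2(RPKM + 1), a scale that understates changes of low genes. Genes needed an RPKM of 1 in at least 3 libraries of the fit, and p-values were two-sided with Benjamini-Hochberg adjustment over all genes of a comparison. All 38 members passed the filter in both arms. The arms were fitted separately, with 20 and 13 libraries and 9 comparisons. The code was tested on simulated data. The 38 members, their roles and the other lists were chosen with earlier results of these data known. Genes are named by rule: all called members of a comparison up to 10, otherwise the 5 largest rises and falls, filled to 4 by the smallest p, with 3 rises and 3 falls of other pathway genes; further members were named in the description by role. Some of the other pathway genes that the rule names are not reported here. Alternatives were another pseudocount, 2 filters, rescaling, quality weights, sex, keratin signal, title sets, smaller fits and leaving out each library. A depth covariate and a fit of males only were added after seeing the data. No column belonged to another series.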

Additional observations from a re-analysis of the deposited data

Results flagged for a closer look

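In groups of 4 to 7 libraries, 9 of 190 sets of RPKM values of the 38 genes had 1 library separated from the others by more than Dixon's limit, and chance alone flags about 1 in 20 sets. WT liver 3 was the lowest of its group for Mbl2 (187.7 RPKM, next 206.3), F9 (107.9, next 131.3), Serpinc1 (178.1, next 193.6) and Serpind1 (199.4, next 217.2). It had the largest library total of the WT livers (6.07 M). In reads per kilobase it was the highest of them for Mbl2 (1138), Serpinc1 (1081) and Serpind1 (1210), and within their range for F9. WT liver 2 was the lowest for F11 (39.2, next 68.3). MYC liver 3 was the highest for F9 (119.8, next 95.5) and Plg (plasminogen; 136.1, next 113.1), and MYC liver 4 the lowest for Serping1 (82.2, next 134.3). MYC+Ex3 liver 3 was the lowest for F7 (31.1, next 46.4). MYC liver 3 had the smallest total of its group (4.39 M), and its reads per kilobase of F9 and Plg lay within that group. WT liver 2 for F11, MYC liver 4 for Serping1 and MYC+Ex3 liver 3 for F7 were lowest in reads per kilobase too.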

How the results depend on the processing

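Depth limits these data through the upper level of reads per kilobase, near which up to 18 of the 38 genes lie. No paired analysis was possible because the labels give animal numbers that are not shared between groups. A count test (edgeR) on the recovered reads was planned as a conditional alternative and was not run here. The following counts of called members moved by over 1.5 times. In MYC against WT livers (5) the count was 12 after rescaling, 8 with quality weights, 12 with the depth covariate, 1 in males only, 3 with only these groups fitted, 14 in keratin-bearing libraries, where MYC has 1 liver that is assumed to vary like the other groups, and 1 in keratin-free libraries. In MYC+Ex3 against WT (8) it was 13, 29, 20 and 4 under the first 4 of these settings, 16 with a keratin term, 5 in keratin-bearing and 16 in keratin-free libraries. In MYC+Ex3 against Ex3 (8) it was 30 with quality weights, 16 with the depth covariate, 2 in males only, 13 with a keratin term and 3 in keratin-bearing libraries. In MYC+Ex3 against MYC livers (0) it was 4 in keratin-bearing libraries. In MYC tumours (20) it was 31 after rescaling, 31 with the depth covariate and 9 with S15 livers only. In MYC+Ex3 tumours (23) it was 35 after rescaling and 14 with S15 livers only. Between tumours (1) it was 0 without a filter, 2 after rescaling, 0 with a sex covariate, 0 with quality weights, 7 with the depth covariate, 0 in males only and 0 with only these groups fitted.

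With each library left out in turn the counts ran from 5 to 9 in MYC against WT, 2 to 17 in MYC+Ex3 against WT, 1 to 11 in MYC+Ex3 against Ex3, 12 to 29 in MYC tumours, 14 to 23 in MYC+Ex3 tumours and 0 to 4 between tumours, where it was 0 without MYC tumour 1 or MYC+Ex3 tumour 2 or 3; in Ex3 against WT, MYC+Ex3 against MYC and the interaction it was 0 throughout. Of 32 calls of named members 11 were kept under all alternatives run and 21 were lost under at least 1; all 21 were lost in males only, a fit of fewer libraries. C2, C6, F5 and F11 in MYC tumours, C2, C6, C9, Mbl1 and Mbl2 in MYC+Ex3 tumours, F9 in MYC+Ex3 against WT and F11 in MYC+Ex3 against Ex3 livers were the 11. Among the named results the sign changed for 7 uncalled values: C4b (0.19, keratin-bearing), C8a (0.048, males only), C8b (0.025, males only) and F5 (-0.17, keratin-free, and -0.045 without MYC liver 4, from a range of -0.045 to 0.41 with each liver left out) in the interaction, and Pros1 in keratin-free libraries for Ex3 against WT (-0.029) and MYC+Ex3 against MYC (-0.028). Among all 38 genes in the 9 comparisons, 102 of 1368 values changed sign under rescaling, the depth covariate, the sex covariate or males only (57 of them in males only), and 0 of these were called in the fit reported. The cause was not tested.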
